A study of Bos taurus with 6 samples.

Results

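The genes described here encode the machinery that makes and checks disulfide bonds in the endoplasmic reticulum (ER): ERO1A, ERO1B, ERP44, P4HB, PDIA3, PDIA4, PDIA6, CALR, CANX and XBP1. They were found by their symbol in the deposited expression files, and all 10 were present, out of 18862 genes of which 15346 carry a symbol. RNA was measured in 6 libraries of bovine embryos at the 8-cell stage, 3 of the GSKA group and 3 of the control group. GSKA is an inhibitor of lactate dehydrogenase A (LDHA), the enzyme that turns pyruvate into lactate, and the study cultured embryos with 200 pmol/L of it to lower histone lactylation. The control embryos went through the same in vitro fertilization and culture without the inhibitor, with an equal concentration of the solvent DMSO in the medium of all groups. Libraries were made with a SMART-Seq low-input kit, and although the study names the method scRNA-seq, a library here is the RNA of embryo material as a whole, without values for single cells. The study counts them as biological replicates, but the sources used here do not say how many embryos made up a library or whether the 3 libraries of a group came from separate cultures. The p-values below set the difference between the groups against the scatter of these libraries, and that scatter may be technical.

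Proteins that enter the ER acquire disulfide bonds by a relay of thiol exchanges. A protein disulfide isomerase oxidizes the client and is itself reoxidized by an ERO1 flavoprotein, which passes the electrons to oxygen and releases hydrogen peroxide. ERO1 enzymes have no retention signal of their own and are held back by ERP44, which cycles between the Golgi and the ER. Calnexin and calreticulin hold glycoproteins while the isomerase PDIA3 works on them, and the transcription factor XBP1 raises the output of many genes of the system when unfolded proteins accumulate. The oocyte makes zona pellucida proteins and growth factors that are rich in disulfide bonds.

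Expression is given as FPKM, the fragments of a transcript divided by its length in kilobases and by the mapped fragments of the library, which allows levels to be compared between genes per length. FPKM holds no counts, so the depth of the libraries is unknown. Across the 6 libraries FPKM summed to between 497035 and 581839, and 14295 to 15370 genes were above 0. Mitochondrial genes took 5.31% to 7.26% of the FPKM in 5 libraries and 13.2% in control replicate 1. All 12 markers of oocytes and early embryos that were looked for passed the filter on low values, led by BTG4. Of 8 markers of the activated embryonic genome, 5 were matched and all 5 were tested, with 0 called and a median log2 fold change of -0.16. KLF17 and ZSCAN4 lay above 0 on that scale, and SUPT4H1, EIF1AX and HSPA1A below, with HSPA1A at -1.59 (adjusted p = 0.0524 from limma, and under 0.05 in 2 of 15 alternatives). The symbols DUXA, LEUTX and ZSCAN5B were not matched.

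Compared with those in the control group, none of the 10 ER oxidative folding genes was called changed in the GSKA group. Differences were tested by limma on log2(FPKM + 1) over the 10654 genes that reached 1 FPKM in 3 or more libraries, and a gene was called at a Benjamini-Hochberg adjusted p under 0.05. By this rule 38 genes were called, 0.357% of those tested, 24 higher (0.225%) and 14 lower (0.131%) in the GSKA group. The split depended on the scaling, with 7 higher and 14 lower after median scaling and 14 higher and 15 lower after quantile normalization. All 10 members were at 1 FPKM or above in all 6 libraries and passed the filter in both groups. Before adjustment, p was under 0.05 for 1 member that was higher, ERP44, and 1 that was lower, ERO1B, where the same held for 9.40% and 4.03% of all genes tested. The members had a median log2 fold change of 0.13, beside 0.09 for all genes, and 7 of the 10 were above 0, beside 57.2% of all genes. Fold changes refer to log2(FPKM + 1), a scale on which changes of weakly expressed genes come out too small. In RNA of whole embryos, fewer cells of a type and less RNA per cell cannot be told apart.

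The members covered a wide range of levels, led by the isomerases PDIA6 and PDIA3. PDIA6 had a mean of 91.4 FPKM over the 6 libraries (60.7 to 121) and lay above 90.7% of the genes tested. PDIA3 followed at 45.5 FPKM, and its highest library, at 55.0, did not reach the lowest library of PDIA6. Below them came CANX at 24.8, PDIA4 at 23.4, CALR at 20.4, XBP1 at 18.5 and P4HB at 13.4 FPKM, means of the 6 libraries whose ranges overlapped from each gene to the next. The range of PDIA3 also overlapped that of CANX, although PDIA3 was the higher of the pair in 6 of 6 libraries. The retention factor and the oxidases were the lowest, with ERP44 at 4.96, ERO1B at 3.84 and ERO1A at 2.79 FPKM. The ranges of these 3 genes overlapped, and that of ERP44 also reached into that of P4HB.

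**Figure D1:**
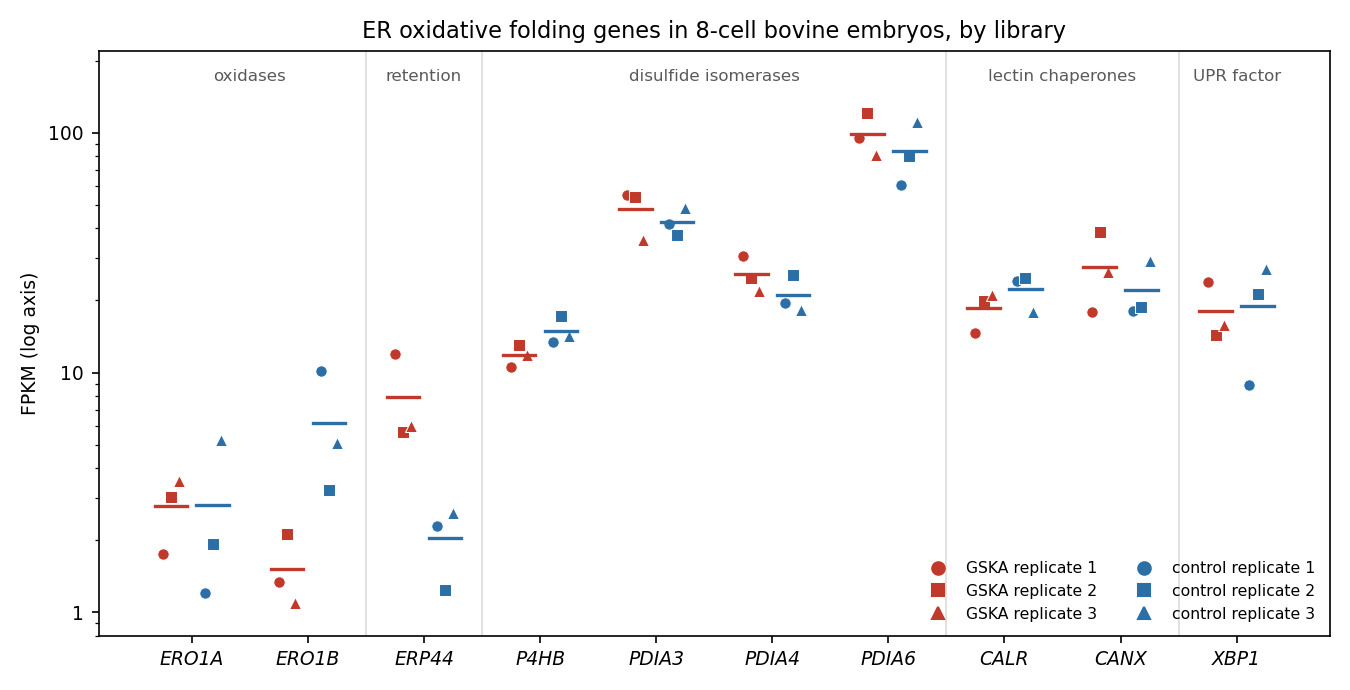
FPKM (log axis) of the 10 ER oxidative folding genes in each of the 3 GSKA libraries (red, left of each pair) and the 3 control libraries (blue, right), with the group mean as a line and the replicate number as the symbol. ERO1B lay at 1.10 to 2.13 FPKM in the GSKA libraries and 3.25 to 10.2 FPKM in the controls, and ERP44 at 5.65 to 12.0 FPKM in the GSKA libraries and 1.24 to 2.61 FPKM in the controls.

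The ERO1 oxidases differed from each other in how their levels lay in the GSKA and control groups. ERO1B, the form best known from secretory cells of the mouse and human pancreas, is on chromosome 28 from 8905885 to 8977775 on the minus strand, in the coordinates of the deposited files (genome build not given in the sources used here). It was at 1.34, 2.13 and 1.10 FPKM in GSKA replicates 1, 2 and 3, against 10.2, 3.25 and 5.07 FPKM in control replicates 1, 2 and 3. All GSKA libraries lay below all control libraries, and control replicate 1 was the highest by far. The means were 1.52 ± 0.540 FPKM in the GSKA group and 6.16 ± 3.59 FPKM in the control group (SD, n = 3 each), so that the control mean was 4.04 times the GSKA mean. The log2 fold change was -1.41 (standard error 0.428, 95% interval -2.33 to -0.48) and the adjusted p from limma was 0.177. Without control replicate 1, which had the highest ERO1B and also the highest mitochondrial share, the log2 fold change was -1.03 and the adjusted p from limma was 0.317.

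ERO1A, the widely expressed form and a target of hypoxia signalling, is on chromosome 10 from 11498442 to 11548825. It was at 1.75, 3.04 and 3.53 FPKM in GSKA replicates 1, 2 and 3, and at 1.21, 1.93 and 5.25 FPKM in control replicates 1, 2 and 3. The control libraries held both the lowest and the highest value. Its log2 fold change of 0.11 had a 95% interval of -0.87 to 1.08 and an adjusted p of 0.946 from limma, which leaves room for a change of about 1 on the log2 scale in either direction. The direction turned under quantile normalization, at -0.01.

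Within each library, the 2 oxidases can be set against each other, which removes any scaling between libraries. ERO1B made up 43.5%, 41.2% and 23.7% of the summed ERO1A and ERO1B FPKM in GSKA replicates 1, 2 and 3, against 89.3%, 62.7% and 49.1% in control replicates 1, 2 and 3. ERO1A was thus the more abundant form in all 3 GSKA libraries, while ERO1B was the more abundant in control replicates 1 and 2 and nearly level with ERO1A in control replicate 3. The summed oxidases came to 3.09, 5.18 and 4.63 FPKM in the GSKA libraries and 11.4, 5.17 and 10.3 FPKM in the controls, where GSKA replicate 2 and control replicate 2 touched. On the log2 scale the ratio of ERO1B to ERO1A averaged -0.86 ± 0.72 in the GSKA group and 1.26 ± 1.62 in the control group (SD, n = 3 each), a difference of -2.12. The difference was -1.21 without control replicate 1.

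ERP44 is the thioredoxin-family protein that retrieves ERO1 oxidases and unfinished disulfide-linked clients from the early Golgi. With FPKM as deposited it had the largest log2 fold change of the 10 members in either direction. The order depended on the measure. By the ratio of mean FPKM, ERO1B differed more, and after median scaling ERO1B was at -1.50 and ERP44 at 1.41. The ERP44 gene is on chromosome 8 from 65039577 to 65136740 on the minus strand and overlaps INVS on the opposite strand, which had a mean of 0.335 FPKM. ERP44 was at 12.0, 5.65 and 5.98 FPKM in GSKA replicates 1, 2 and 3, against 2.29, 1.24 and 2.61 FPKM in control replicates 1, 2 and 3. All GSKA libraries lay above all control libraries, and GSKA replicate 1 stood well above the other GSKA libraries. The means were 7.87 ± 3.57 FPKM in the GSKA group and 2.05 ± 0.719 FPKM in the control group (SD, n = 3 each), a ratio of 3.85. The log2 fold change was 1.50 (standard error 0.401, 95% interval 0.64 to 2.37) and the adjusted p from limma was 0.130. Over 15 alternative settings it ran from 1.19 to 1.87 with adjusted p-values of 0.111 to 0.520, and it was called in 0 of them.

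Counted by overlap alone, 1 member was higher in all GSKA libraries than in all controls (ERP44) and 2 were lower (ERO1B and P4HB). Among all genes tested, 12.9% were separated in this way with GSKA higher and 6.45% with GSKA lower. An exact permutation test of 3 libraries against 3 has 20 splits, and its smallest two-sided p is 0.1, which is the value for each of these 3 genes.

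The ratio of ERP44 to its oxidase clients was computed in each library. This ratio was chosen with the values of ERP44 and ERO1B already known, so it is given as a description. It was 3.88, 1.09 and 1.29 in GSKA replicates 1, 2 and 3, against 0.201, 0.239 and 0.253 in control replicates 1, 2 and 3. ERP44 therefore stood above the summed oxidases in all GSKA libraries and well below them in all controls. The mean log2 ratio was 0.82 ± 0.99 in the GSKA group and -2.12 ± 0.17 in the control group (SD, n = 3 each), a difference of 2.94. Leaving out each library in turn gave differences of 2.37 to 3.28.

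**Figure D2:**
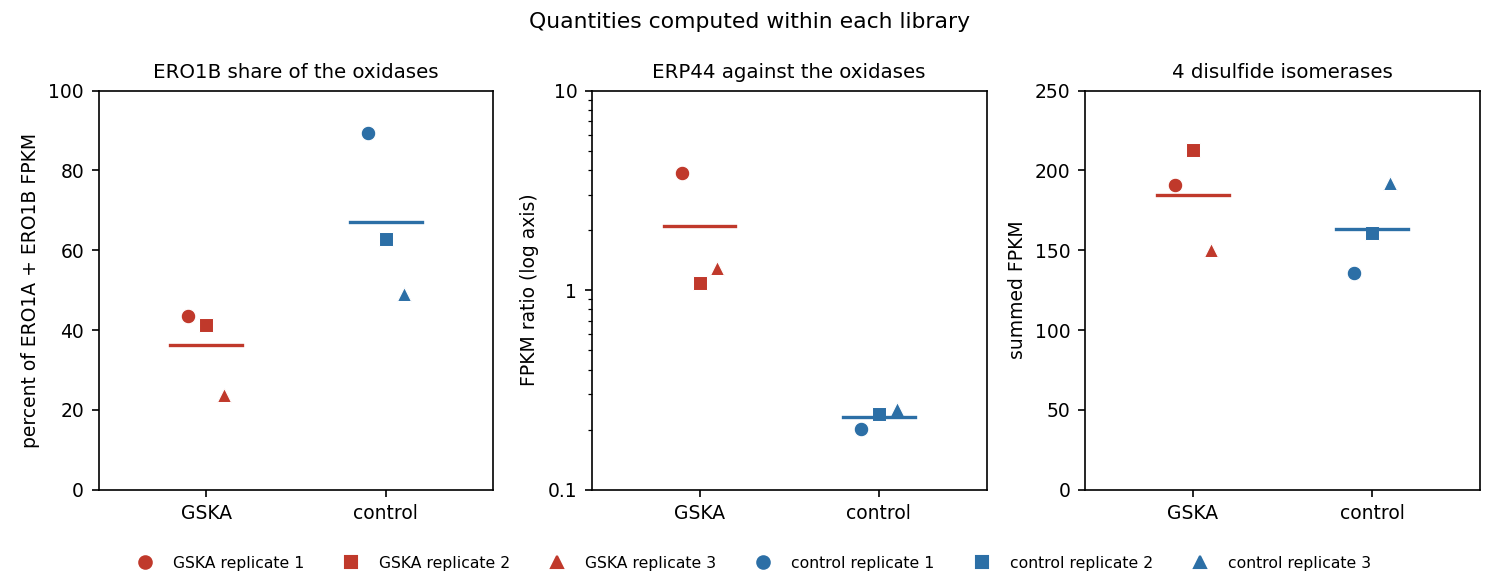
Left, ERO1B as a percent of ERO1A plus ERO1B FPKM. Middle, the ratio of ERP44 to ERO1A plus ERO1B FPKM on a log axis. Right, the summed FPKM of P4HB, PDIA3, PDIA4 and PDIA6. Points are libraries, lines group means, with GSKA left and control right. The ERP44 ratio was 1.09 to 3.88 in the GSKA libraries and 0.201 to 0.253 in the controls, while the summed isomerases of the groups overlapped.

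The disulfide isomerases, which form and rearrange the bonds in client proteins, overlapped between the groups with the exception of P4HB. P4HB, the classical protein disulfide isomerase and a subunit of collagen prolyl hydroxylase, was at 10.6, 13.0 and 11.9 FPKM in GSKA replicates 1, 2 and 3, against 13.4, 17.3 and 14.2 FPKM in control replicates 1, 2 and 3. All GSKA values lay below all control values, but the gap between the nearest libraries was small. P4HB thus had a difference of -0.31 on the log2 scale (95% interval -0.94 to 0.31, adjusted p = 0.680 from limma).

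PDIA3, which works with calnexin and calreticulin on glycoproteins, was at 55.0, 54.2 and 35.8 FPKM in GSKA replicates 1, 2 and 3, and at 41.8, 37.6 and 48.6 FPKM in control replicates 1, 2 and 3. GSKA replicate 3 was the lowest of all 6 libraries and GSKA replicate 1 the highest. Its log2 fold change was 0.16 (95% interval -0.41 to 0.72, adjusted p = 0.839 from limma). PDIA3 overlaps CATSPER2 on the opposite strand, at a mean of 0.690 FPKM.

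PDIA4, an isomerase with an additional catalytic thioredoxin domain, was at 30.6, 24.8 and 21.9 FPKM in GSKA replicates 1, 2 and 3, and at 19.6, 25.6 and 18.2 FPKM in control replicates 1, 2 and 3. GSKA replicate 1 was the highest and control replicates 1 and 3 the lowest, with the others between. The log2 fold change was 0.28 (95% interval -0.32 to 0.88, adjusted p = 0.713 from limma).

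PDIA6, an isomerase that associates with the chaperone HSPA5, was at 95.0, 121 and 80.6 FPKM in GSKA replicates 1, 2 and 3, and at 60.7, 80.4 and 111 FPKM in control replicates 1, 2 and 3. The groups overlapped, with control replicate 1 lowest and GSKA replicate 2 highest. For PDIA6 the log2 fold change was 0.26 (95% interval -0.32 to 0.84, adjusted p = 0.724 from limma). PDIA6 overlaps ATP6V1C2 on the opposite strand, at a mean of 0.796 FPKM.

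Summed, the 4 isomerases came to 191, 213 and 150 FPKM in the GSKA libraries and 136, 161 and 192 FPKM in the controls, and they made up 67.1% to 72.8% of the FPKM of the 10 members in every library. The groups overlapped in both measures. Per unit of oxidase the isomerases were at 61.9, 41.2 and 32.4 in GSKA replicates 1, 2 and 3, against 11.9, 31.1 and 18.6 in control replicates 1, 2 and 3. These values did not overlap, GSKA replicate 3 and control replicate 2 being nearest. The oxidases were 1.18% to 2.07% of the members' FPKM in the GSKA libraries and 2.23% to 5.68% in the controls. Both quantities contain the ERO1B values given above and were chosen with earlier results known. They are therefore a description and no separate result on the isomerases. The summed oxidases themselves overlapped between the groups.

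The lectin chaperones also overlapped between the groups. Calreticulin (CALR), the soluble chaperone that also buffers calcium in the ER, was at 14.7, 19.9 and 21.0 FPKM in GSKA replicates 1, 2 and 3, and at 24.2, 24.9 and 17.9 FPKM in control replicates 1, 2 and 3. Its log2 fold change was -0.26 (95% interval -0.87 to 0.36, adjusted p = 0.741 from limma). Control replicates 1 and 2 were above all GSKA libraries, and control replicate 3 fell among them. Calnexin (CANX), its membrane-bound counterpart, was at 17.9, 38.6 and 26.2 FPKM in GSKA replicates 1, 2 and 3, and at 18.1, 18.8 and 29.2 FPKM in control replicates 1, 2 and 3. GSKA replicate 2 stood alone at the top, and without it the log2 fold change of CANX was 0.01. With all libraries the log2 fold change was 0.28 (95% interval -0.43 to 0.99, adjusted p = 0.761 from limma). CANX exceeded CALR in all 3 GSKA libraries, at ratios of 1.22, 1.94 and 1.25, and in control replicate 3, at 1.64, but not in control replicates 1 and 2, at 0.750 and 0.754.

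XBP1, whose mRNA is spliced by ERN1 to give the active transcription factor, was at 23.8, 14.4 and 15.8 FPKM in GSKA replicates 1, 2 and 3, and at 8.85, 21.2 and 27.0 FPKM in control replicates 1, 2 and 3. The control libraries spanned a wider range than the GSKA libraries and enclosed all of them. For XBP1 the log2 fold change was 0.02 (95% interval -0.81 to 0.86, adjusted p = 0.990 from limma), and it turned to -0.07 after median scaling. Gene-level FPKM does not separate the spliced from the unspliced form.

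**Figure D3:**
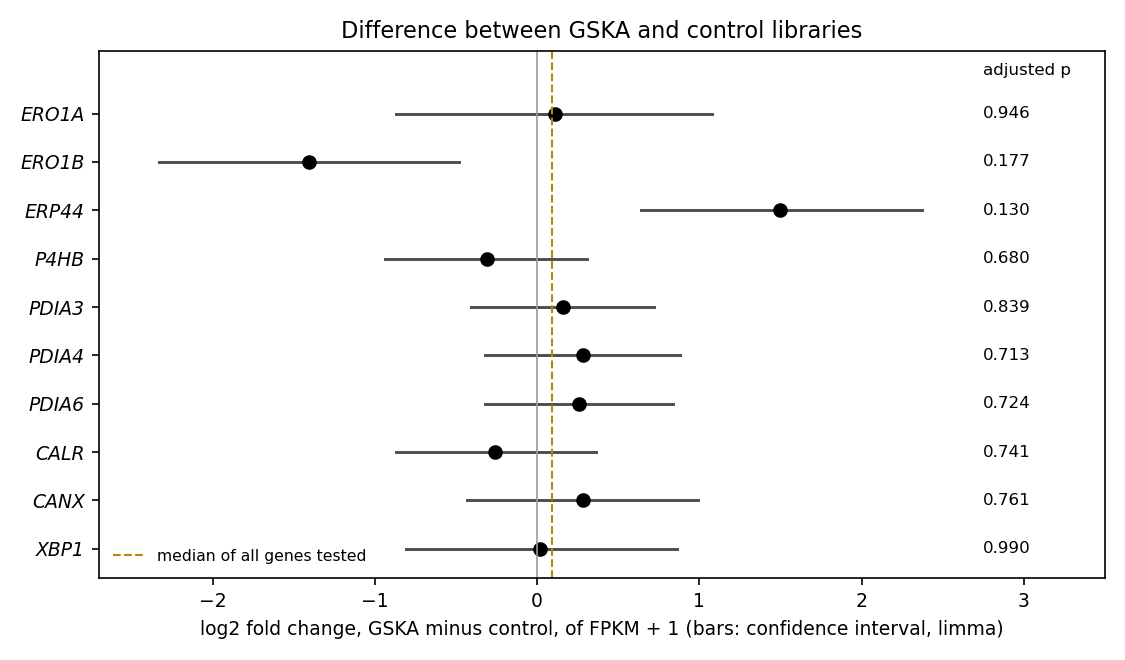
Log2 fold change of FPKM + 1, GSKA minus control, of each member from limma (points) with its 95% interval (bars) and adjusted p (right), and the median of all genes tested, 0.09 (dashed). The intervals of ERO1B (-2.33 to -0.48) and ERP44 (0.64 to 2.37) did not reach 0, those of the other 8 members did, and the lowest adjusted p was 0.130.

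The surrounding pathway was read from 7 lists of ER genes, with 127 genes in the files and 111 tested. Of these, 1 was called, AGR2 (0.901%, beside 0.357% of all genes tested). AGR2 was at 0 FPKM in all controls and passed the filter through the GSKA libraries alone. It was called in 0 of the 11 alternative fits that held it. Groups did not overlap for 15 genes with GSKA higher (13.5%) and 6 with GSKA lower (5.41%), near the 12.9% and 6.45% of all genes, and the median log2 fold change was 0.06.

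Among 18 further disulfide isomerases and thiol oxidases, the called gene was AGR2, a member of the isomerase family known from mucus-secreting epithelia. It was listed at 1.9, 3.67 and 6.73 FPKM in GSKA replicates 1, 2 and 3 and at 0 in all controls (adjusted p = 0.0478 from limma). AGR2 passed the filter through the GSKA libraries alone, so it had to differ, and it was called in none of the 11 alternative fits that held it (adjusted p = 0.0571 to 0.272). TMX4, a membrane-bound thioredoxin of the ER, was next at 6.52, 8.13 and 7.53 FPKM in GSKA replicates 1, 2 and 3 against 1.91, 3.49 and 5.08 FPKM in control replicates 1, 2 and 3, with a log2 fold change of 0.96 and an adjusted p of 0.288. The list had 13 genes above 0 and 5 below, with a median of 0.14. The 12 tested genes of glycan trimming and the lectin cycle had 0 called and a median of 0.28. At an unadjusted p under 0.05, 1 gene was lower, where this held for 4.03% of all genes tested. That gene was the cargo receptor LMAN1, at 4.64, 9.98 and 1.49 FPKM in GSKA replicates 1, 2 and 3. In control replicates 1, 2 and 3 it was at 18.1, 10.4 and 8.04 FPKM. Its log2 fold change was -1.22 with an adjusted p of 0.304, and it was -0.67 without GSKA replicate 3. The glucosidase subunit GANAB had the next smallest p of that list, with a log2 fold change of 0.52 and an adjusted p of 0.666.

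The 16 tested HSP70 and HSP90 chaperones of the ER and their cofactors had 8 genes above 0, 8 below and a median of 0.02. By limma 0 were called. At an unadjusted p under 0.05, 1 gene was lower (SDF2), where this held for 4.03% of all genes tested. HSPA5 (BiP), the main HSP70 of the ER, was at 78.7, 56.9 and 56.7 FPKM in GSKA replicates 1, 2 and 3 and at 49.2, 72.4 and 120 FPKM in control replicates 1, 2 and 3. The controls enclosed the GSKA libraries, and the adjusted p was 0.777. The HSP90 of the ER, HSP90B1, differed by 0.20 on the log2 scale (adjusted p = 0.736). SDF2, a partner of the HSPA5 cochaperone DNAJB11, had the smallest p of the list, with a log2 fold change of -0.50 and an adjusted p of 0.346, followed by the cochaperone DNAJB9 at 0.54 with an adjusted p of 0.428.

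In the list of unfolded protein response sensors and effectors, to which XBP1 is functionally tied, 0 of 18 tested genes were called by limma. At an unadjusted p under 0.05, 1 gene was higher (CREB3L2) and 2 were lower (HERPUD1 and ATF3). This held for 9.40% and 4.03% of all genes tested. The list had 14 genes below 0 and 4 above, with a median log2 fold change of -0.36, the lowest of the 7 lists. That median was -0.22 without control replicate 1 and -0.17 with no filter on low values. HERPUD1, a scaffold of ER-associated degradation and a target of the response, was at 4.63, 5.30 and 5.38 FPKM in GSKA replicates 1, 2 and 3, against 8.97, 8.10 and 13.0 FPKM in control replicates 1, 2 and 3. The groups did not overlap, and the log2 fold change of -0.83 had an adjusted p of 0.296 from limma. CREB3L2, an ER-anchored transcription factor, had a log2 fold change of 1.14 with an adjusted p of 0.267 from limma. It was at 3.32, 1.34 and 2.05 FPKM in GSKA replicates 1, 2 and 3. In control replicates 1, 2 and 3 it was at 0.0414, 0.305 and 1.10 FPKM. Without the GSKA libraries CREB3L2 would not have met the filter, so its direction is given as a description only. Of the 3 sensors, the kinase and endonuclease ERN1 lay at -0.00 on the log2 scale (adjusted p = 0.998), the kinase EIF2AK3 at -0.41 (adjusted p = 0.661) and the transcription factor ATF6 at -0.47 (adjusted p = 0.618). The effector ATF4 was at -0.36 (adjusted p = 0.666). DDIT3, which encodes the transcription factor CHOP, was at 520, 486 and 502 FPKM in GSKA replicates 1, 2 and 3 and at 605, 496 and 476 FPKM in control replicates 1, 2 and 3, with overlapping groups and an adjusted p of 0.927.

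Among 19 tested genes of ER-associated degradation, UBXN4, a membrane protein that recruits the ATPase VCP to the ER, came closest to the threshold. It was at 69.5, 61.1 and 65.1 FPKM in GSKA replicates 1, 2 and 3, against 33.9, 21.8 and 26.8 FPKM in control replicates 1, 2 and 3. All GSKA libraries lay well above all controls, with a log2 fold change of 1.24 and an adjusted p of 0.0735 from limma, and an adjusted p of 0.0402 without control replicate 1. The ubiquitin-conjugating enzyme UBE2J2 was at 0.66 (adjusted p = 0.308). The list had 13 genes above 0 and 6 below, and a median of 0.14.

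The 26 genes of the translocon, signal peptidase, oligosaccharyltransferase and KDEL receptors, through which clients enter the ER and its proteins are retrieved, had 0 called, with 6 higher and 1 lower at an unadjusted p under 0.05, where this held for 9.40% and 4.03% of all genes tested. STT3A, a catalytic subunit of the oligosaccharyltransferase, was at 45.1, 41.0 and 33.0 FPKM in GSKA replicates 1, 2 and 3 against 17.6, 19.0 and 30.2 FPKM in control replicates 1, 2 and 3 (log2 fold change 0.83, adjusted p = 0.233 from limma). SSR4, a subunit of the translocon-associated complex, was at 13.7, 17.2 and 9.75 FPKM in GSKA replicates 1, 2 and 3 against 45.0, 22.0 and 19.9 FPKM in control replicates 1, 2 and 3 (log2 fold change -0.98, adjusted p = 0.249). For neither gene did the groups overlap. The KDEL receptors, which bind ERP44, had log2 fold changes of 0.40 for KDELR1, 0.28 for KDELR2 and 1.04 for KDELR3, with adjusted p-values of 0.704, 0.704 and 0.284. For all 3 receptors the groups overlapped.

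Of the other known partners of ERP44, 3 of 5 genes in the files were tested and 0 were called, and none had an unadjusted p under 0.05. PRDX4, the ER peroxiredoxin that ERP44 retains and that consumes hydrogen peroxide, was at 66.8, 66.0 and 42.3 FPKM in GSKA replicates 1, 2 and 3 and at 66.8, 66.4 and 73.8 FPKM in control replicates 1, 2 and 3, with overlapping groups, a log2 fold change of -0.27 and an adjusted p of 0.690 from limma. The calcium channel ITPR1, which ERP44 binds, was at 0.43 (adjusted p = 0.665).

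**Figure D4:**
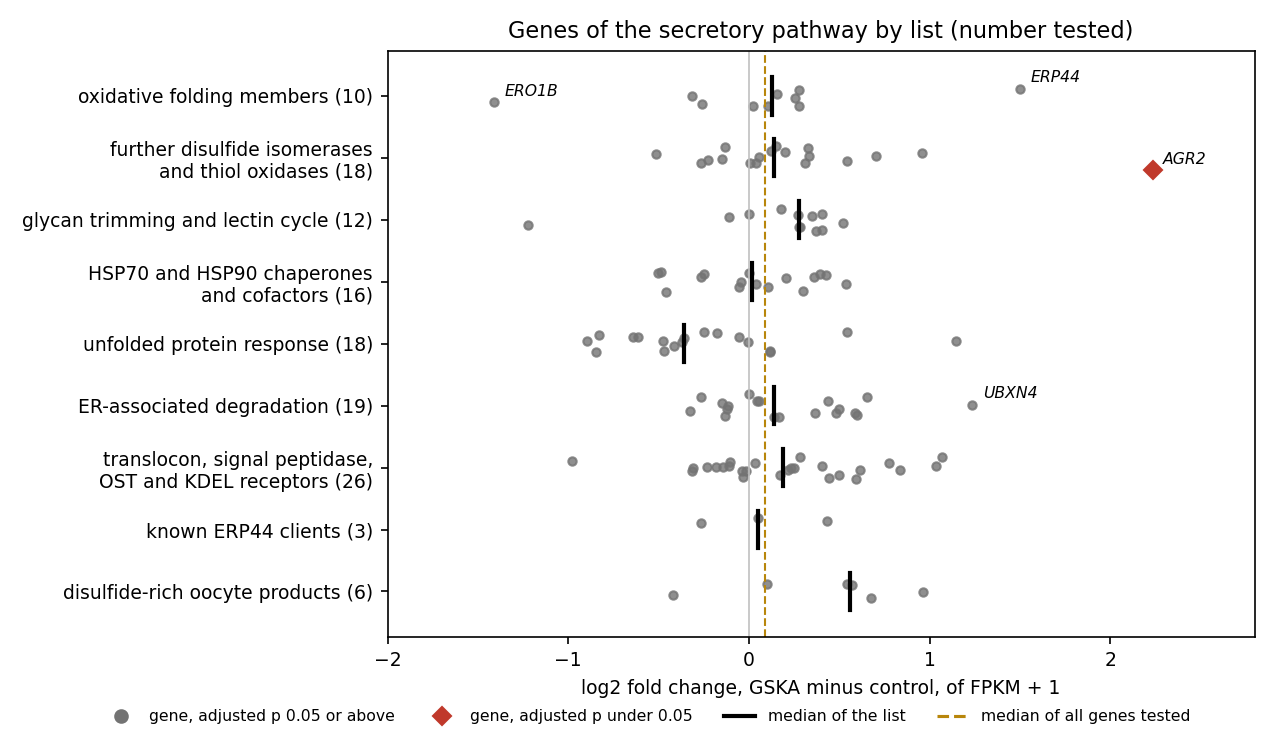
Log2 fold change of FPKM + 1, GSKA minus control, of each tested gene (points) in the 10 members and in the lists of related genes, with the median of each list (black line) and of all genes tested (dashed, 0.09). The diamond marks AGR2, the gene called at an adjusted p under 0.05, and the unfolded protein response list had the lowest median, -0.36.

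Markers of other cells were summed in each library, and 0 were called. The summed FPKM of 12 cumulus and granulosa genes was 72.8 to 83.3 in the GSKA libraries and 41.5 to 59.8 in the controls, and most of it came from STAR and TNFAIP6, whose groups did not overlap. STAR averaged 48.2 FPKM in the GSKA group and 30.0 FPKM in the control group, and TNFAIP6 averaged 16.1 FPKM in the GSKA group and 7.51 FPKM in the control group. HAS2, VCAN and HSD3B1 also had the higher mean in the GSKA group, at 7.60, 2.53 and 1.89 FPKM against 5.34, 0.903 and 0 FPKM. Of the 5 tested genes of the list, 4 lay above 0 and 1 below, with a median log2 fold change of 0.72. The median of all genes tested was 0.09. An unadjusted p under 0.05 from limma held for 3 of the 5, all higher, and for 9.40% of all genes in that direction. Of these 3, VCAN reached 1 FPKM in all GSKA libraries but, among the controls, in replicate 3 only. Other genes of the list had the lower mean in the GSKA group. Among them were CD44 at 2.30 FPKM in the GSKA group and 3.66 FPKM in the control group, and PTX3, AMH, LUM and INHBA, these 4 under 1 FPKM on average. CYP19A1 and INHA, which define granulosa cells, were at 0.131 FPKM or lower in all 6 libraries, and FSHR and FOXL2 were not matched. The sum of 7 sperm genes was 9.30 to 11.3 FPKM in the GSKA libraries and 4.04 to 5.22 FPKM in the controls. Of these genes, 4 were listed at 0 in every control. Most of the control sum came from ODF2, which went the other way, with means of 3.01 FPKM in the GSKA group and 4.14 FPKM in the control group. TNP2 passed the filter through the GSKA libraries alone, at means of 3.19 FPKM in the GSKA group and 0.291 FPKM in the control group. The symbols PRM2, PRM3 and AKAP4 were not matched. Blood markers summed to 2.58 to 8.36 FPKM in the GSKA libraries and 7.52 to 13.5 FPKM in the controls, and markers of professional secretory cells to 3.42 to 12.6 FPKM in the GSKA libraries and 2.01 to 10.1 FPKM in the controls. The last 2 sums overlapped between the groups. The part of these cells in the values of ERP44, ERO1B and AGR2 was not tested.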

How the data were processed

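RNA of 6 libraries of 8-cell embryos, 3 GSKA and 3 control, was analysed by group as labelled. The authors deposited FPKM values per gene, made with cutadapt 1.9, HISAT2 2.0.4 and StringTie 1.3.4d according to the submitters' processing notes, which also name edgeR. The deposited table of differentially expressed genes, with the authors' own folds, p-values and q-values, was not used. FPKM was used as deposited and tested on log2(FPKM + 1) with limma 3.58.1 in R 4.3.3, with group as the only term, an intensity trend in the variance, and Benjamini-Hochberg adjustment over the 10654 genes at 1 FPKM or above in at least 3 of 6 libraries. The test was also run on simulated libraries with known changes and independent noise. The outcome is not given here and lends no weight to the calls. Exact permutation tests were two-sided. The members, the gene lists and the ratios were chosen with earlier results of these data known. The genes named were the 10 members, the called genes or otherwise the 2 smallest p-values of each list, and 9 further genes (HSPA5, HSP90B1, ERN1, EIF2AK3, ATF6, ATF4, DDIT3, PRDX4 and HERPUD1). TMX4, ATF3, the KDEL receptors and the marker genes were named after their values were seen. Alternatives were the pseudocount, the filter, the scaling, the variance trend, a replicate block and each library left out.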

Additional observations from a re-analysis of the deposited data

How the results depend on the processing

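Members called numbered 0 under all 15 alternatives. The count of all genes called by limma, 38, was 15 with a pseudocount of 0.1, 19 with a replicate block, 21 with median scaling, 7 with no intensity trend and 0 with no filter on FPKM, where 1664 genes had an unadjusted p under 0.05. Leaving out 1 library gave 4 to 34 genes, with 5, 13 and 4 without GSKA replicates 1, 2 and 3 and 34, 17 and 25 without control replicates 1, 2 and 3. Deviations of same-numbered libraries from their group means correlated at -0.08, 0.14 and -0.12, and not every library correlated best with its own number. With 3 libraries per group these values cannot decide whether the replicate numbers pair the libraries. The members' median, 0.13, ranged from -0.07 without control replicate 1 to 0.29 without control replicate 3. Over all their alternatives ERO1B ran from -1.84 to -1.03 and ERP44 from 1.19 to 1.87 (log2 fold change). With 1 library left out, PDIA3 ranged from 0.05 to 0.36, PDIA4 from 0.15 to 0.41, PDIA6 from 0.05 to 0.48, P4HB from -0.38 to -0.21, CALR from -0.40 to -0.11 and CANX from 0.01 to 0.54, and LMAN1 from -1.74 to -0.67. ERO1A turned to -0.01 with quantile normalization and ranged from -0.21 to 0.54 with a library left out. XBP1 was -0.09 with quantile normalization, -0.07 with median scaling, -0.02 after rescaling each library to the same FPKM sum without mitochondrial genes, and -0.42 to 0.33 with a library left out. With a library left out, ERN1 ranged from -0.20 to 0.11, HSPA5 from -0.55 to 0.08, ATF4 from -0.68 to 0.01 and DDIT3 from -0.12 to 0.05, and ERN1 was 0.05 with a pseudocount of 0.1. The list of further isomerases had 0 genes called under every alternative, and that of ER-associated degradation had 1, UBXN4, without control replicate 1 and at a minimum of 5 FPKM. With no filter the list medians were -0.17 for the unfolded protein response and 0.28 for oocyte products. The cause of these changes was not tested. ERO1A and ERO1B did not pass the minimum of 5 FPKM and have no value there. Depth is unknown, so how far it limits ERO1A, ERO1B and ERP44, all at low FPKM, cannot be given.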

Other observations

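The disulfide-rich products that oocytes secrete are clients of this machinery in the oocyte. They had 6 tested genes of 10, with 0 called by limma and a median log2 fold change of 0.56. That median was 0.30 without control replicate 1. An unadjusted p under 0.05 held for 3 of the 6. The 3 genes at that p were all higher in the GSKA group, as were 1001 of the 1430 such genes among all tested. Those 1001 genes were 9.40% of all genes tested. The 12 markers of oocytes and early embryos, which share GDF9, BMP15, ZP2 and ZP3 with these products, had 11 genes above 0, a median of 0.41 and 1 called, KHDC3L, a gene of the subcortical maternal complex. KHDC3L was at 206, 184 and 148 FPKM in GSKA replicates 1, 2 and 3, against 47.7, 67.2 and 81.0 FPKM in control replicates 1, 2 and 3 (log2 fold change 1.46, adjusted p = 0.0348 from limma). The call held in 6 of 15 alternatives, with adjusted p-values of 0.0193 to 0.252, but not when control replicate 2 or any 1 GSKA library was left out. ZP4, a zona pellucida glycoprotein, was at 985, 755 and 653 FPKM in GSKA replicates 1, 2 and 3, against 183, 577 and 618 FPKM in control replicates 1, 2 and 3, a log2 fold change of 0.96 with an adjusted p of 0.288 from limma. The groups did not overlap, and control replicate 1 lay far below the other controls. Without that library the log2 fold change of ZP4 was 0.40. The growth factor GDF9 was at 148, 141 and 135 FPKM in GSKA replicates 1, 2 and 3, against 84.9, 80.1 and 125 FPKM in control replicates 1, 2 and 3, a log2 fold change of 0.57 with an adjusted p of 0.310. ZP2 was the third gene whose groups did not overlap, with GSKA higher. Among all genes tested, 12.9% were separated in that direction.

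The genes whose log2(FPKM + 1) followed ERO1B most closely over the 6 libraries were FTSJ1 (Pearson r = 0.996), PHF23 (0.984) and EIF1 (0.983), and 43 tested genes had an r over 0.95. For ERP44 they were IFI44 (0.999), RIPK2 (0.998) and GALT (0.989), with 72 genes over 0.95. FTSJ1, a transfer RNA methyltransferase, was at 3.13, 4.27 and 2.97 FPKM in GSKA replicates 1, 2 and 3, against 11.5, 4.81 and 7.02 FPKM in control replicates 1, 2 and 3. RIPK2, a signalling kinase, was at 14.9, 9.32 and 9.66 FPKM in GSKA replicates 1, 2 and 3, against 5.08, 3.59 and 5.19 FPKM in control replicates 1, 2 and 3. ERO1B and ERP44 correlated at -0.70. The 6 points of each correlation share libraries and groups, so these values are a description.

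Single libraries supplied several extremes among the members. Control replicate 1 held the lowest ERO1A, PDIA6 and XBP1 and the highest ERO1B, and GSKA replicate 1 held the highest ERP44, PDIA3 and PDIA4 and the lowest P4HB, CALR and CANX.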
